A study of Mus musculus with 22 samples.

Results

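H3K4me3 was examined at promoters of noncoding transcripts in mouse synovial fibroblasts, which are the connective tissue cells that line the joint. A region was included when its nearest transcript carried a RefSeq identifier of the noncoding series (NR_) and its deposited annotation placed it within 250 bp, 1 kb or 3 kb of that transcript's start. These criteria gave 231 regions at 169 genes, out of 26201 regions in 4 tables. A further 7539 regions lay at promoters of coding transcripts. The cells had been grown to passage 4 or 5 from animals of a CBA x C57BL/6J background, and each of 7 groups had 3 ChIP libraries. Tg197 is an arthritis model in which mice express TNF from a human transgene. Tg197 and wild-type (WT) cells were compared at 3, 8 and 11 weeks of age, which the series calls early, established and late. Another comparison set WT cells of 8 weeks treated with TNF against the untreated WT cells of 8 weeks, which also served as the controls of the 8 week genotype comparison. The dose and duration of TNF are not given in the sources used here. Nothing says whether libraries of the same group are different animals, so p-values measure only the spread between these libraries, which may be technical. Chromatin was prepared from cells in bulk, so a change in a share of the cells and a change in every cell cannot be told apart.

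H3K4me3 is deposited on nucleosomes around the starts of genes that are transcribed or poised, and it usually flanks the start itself. Many noncoding transcripts are made from such promoters. They include long noncoding RNAs that act in the nucleus, host transcripts that are spliced to release small nucleolar RNAs or microRNAs, and transcripts that start back to back with a coding gene. MicroRNAs are short RNAs that recognise messenger RNAs mainly through a seed near their 5′ end. Their annotated start is the end of the hairpin, which can lie far from the promoter of the primary transcript, so a region assigned to a microRNA can belong to a host gene or a neighbour.

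The 169 genes comprised 76 with RIKEN clone names, 33 with other names, 20 microRNA genes, 18 with predicted or clone names, 9 small RNA genes, 6 host transcripts, 5 with pseudogene names and 2 opposite-strand transcripts. RefSeq entries on GRCm38.p6 were found for all but 2 of them, 155 by accession, 6 by symbol and 6 by synonym. RefSeq now types 89 as long noncoding RNA, 24 as transcribed pseudogenes, 20 as microRNAs and 23 as protein-coding genes. The last group entered through a noncoding variant of a coding gene or an older noncoding annotation.

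One mature arm is shown for 13 of the microRNA genes whose nearest region passed the test described below, because the seed is what defines the targets a microRNA can reach. The sequences are from RefSeq (GRCm38.p6) and the capitals mark the seed, bases 2 to 8. The first 7 belong to genes whose regions fell in Tg197 cells at 3 weeks, the next 3 to genes that rose at 11 weeks, the next 2 to genes that fell at 11 weeks and the last to a gene that fell with TNF.
miR-125b-5p: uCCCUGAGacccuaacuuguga
miR-138-5p: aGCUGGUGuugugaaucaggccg
miR-196a-5p: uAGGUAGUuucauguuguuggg
miR-34a-5p: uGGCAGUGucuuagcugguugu
miR-425-5p: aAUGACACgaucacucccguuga
miR-497a-5p: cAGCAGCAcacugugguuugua
miR-688: uCGCAGGCgacuacuuauuc
miR-17-5p: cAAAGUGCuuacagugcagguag
miR-210-3p: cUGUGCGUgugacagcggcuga
miR-190b-5p: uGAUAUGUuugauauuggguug
miR-449c-5p: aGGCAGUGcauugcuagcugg
miR-9-5p: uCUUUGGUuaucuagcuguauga
miR-212-3p: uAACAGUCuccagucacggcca
Of the 34 mature arms read for 18 of the 20 genes there were 33 distinct seeds. The only seed shared between 2 of the genes was GGCAGUG, of miR-34a-5p and miR-449c-5p.

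The promoters of 5 genes are shown as RefSeq gives them on GRCm38.p6, from 250 bases before to 50 after the start. Dleu2 is shown because its 2 changes had opposite signs, Tug1 because it shares its promoter with a coding gene, Snhg12 because it fell beside host transcripts that rose, and Gm14005 and Snhg8 because they held one of the motifs searched. Capitals mark the motif found, an AP-1 motif (TGANTCA) in Gm14005 and a kB motif, named for NF-kB, on the opposite strand in Snhg8.
Dleu2, chr14:61682324-61682623, - strand: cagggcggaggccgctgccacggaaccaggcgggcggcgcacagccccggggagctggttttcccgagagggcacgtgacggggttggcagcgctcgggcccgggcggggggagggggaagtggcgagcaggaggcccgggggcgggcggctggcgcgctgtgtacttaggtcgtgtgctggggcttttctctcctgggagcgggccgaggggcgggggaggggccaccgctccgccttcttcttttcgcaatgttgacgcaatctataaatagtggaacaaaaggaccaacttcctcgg
Tug1, chr11:3648765-3649064, - strand: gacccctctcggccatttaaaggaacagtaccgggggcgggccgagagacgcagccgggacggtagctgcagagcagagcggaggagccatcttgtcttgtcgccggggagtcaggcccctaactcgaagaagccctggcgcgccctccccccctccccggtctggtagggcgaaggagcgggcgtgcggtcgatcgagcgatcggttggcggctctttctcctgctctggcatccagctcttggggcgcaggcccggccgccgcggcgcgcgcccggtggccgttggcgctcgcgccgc
Snhg12, chr4:132308428-132308727, + strand: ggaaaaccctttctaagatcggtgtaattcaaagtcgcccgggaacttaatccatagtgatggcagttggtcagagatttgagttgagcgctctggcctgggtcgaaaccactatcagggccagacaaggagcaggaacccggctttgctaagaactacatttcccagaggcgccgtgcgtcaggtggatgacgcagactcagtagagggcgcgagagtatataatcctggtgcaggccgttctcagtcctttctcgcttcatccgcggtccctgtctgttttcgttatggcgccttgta
Gm14005, chr2:128429302-128429601, - strand: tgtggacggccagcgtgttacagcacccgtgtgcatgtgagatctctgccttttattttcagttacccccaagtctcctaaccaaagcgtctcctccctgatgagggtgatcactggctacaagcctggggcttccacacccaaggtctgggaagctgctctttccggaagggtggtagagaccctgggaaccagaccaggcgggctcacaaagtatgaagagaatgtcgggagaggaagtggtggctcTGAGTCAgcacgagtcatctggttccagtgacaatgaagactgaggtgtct
Snhg8, chr3:123508287-123508586, - strand: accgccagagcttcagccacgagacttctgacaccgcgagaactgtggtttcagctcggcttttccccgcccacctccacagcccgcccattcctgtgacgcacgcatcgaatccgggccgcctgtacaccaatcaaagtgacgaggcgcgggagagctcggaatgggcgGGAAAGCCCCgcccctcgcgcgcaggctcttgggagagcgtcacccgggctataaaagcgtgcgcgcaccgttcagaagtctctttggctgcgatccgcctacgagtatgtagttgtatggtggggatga
Both strands of every promoter were searched for the kB motif in 2 forms and for TGANTCA, which did not overlap each other in these promoters. Among the 82 promoters of 76 genes that RefSeq types as noncoding, 1 held a kB motif (1.2%, against 0.8% of all promoters) and 3 held an AP-1 motif (3.7%, against 7.8%). A coding gene on the other strand started within 1 kb of 26 of the 82 (31.7%), against 11.5% of the 11588 noncoding promoters of the whole table. Median GC content was 60.7%, against 48.3%. These noncoding promoters at large were not limited to ones that carry H3K4me3 in these cells.

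Each value is the authors' normalized read count of 1 library in 1 region, on the mm9 build. The 3 libraries of a group are called a, b and c, after their place in the deposited cell. Whole reads in the listed regions ran from 1560963 to 2780941 per library at 3 weeks, 390496 to 849692 at 8 weeks, 807633 to 1096917 at 11 weeks and 321448 to 1312112 in the TNF table. Only regions that the authors' comparison had singled out were listed (best window p of at most 0.0001), so a gene that is missing here may carry the mark without a difference. Since listing needed a difference, the counts below describe the balance of directions and are not evidence that the members as a group changed. A region is said to have risen or fallen when limma's adjusted p, taken over the whole table, was under 0.05, and to be higher or lower when the authors' deposited adjusted p was. Fitted log2 changes are given with their standard error and n = 3 per group. Of 14 fibroblast markers, 6, 2, 5 and 3 had a listed promoter region at 3, 8 and 11 weeks and with TNF. Of 11 leukocyte markers, 2, 0 and 0 had one at 8 weeks, at 11 weeks and with TNF. The 2 listed at 8 weeks, Cd79a and Fcer1g, were lower, with summed levels from 120.2 to 199 in Tg197 and 181 to 408 in WT libraries. Their part in the results was not tested.

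The members did not move in a single direction. At 3 weeks 14 of 88 regions rose and 52 fell, where 4.68% of all listed regions rose and 88.9% fell. At 11 weeks 24 of 60 rose and 27 fell, against 29.6% and 67.7%. With TNF 7 of 46 rose and 14 fell, against 16.5% and 42.6%. At 8 weeks limma called no region of the table in either direction (0.0% and 0.0%), although 17 of the 37 members had an unadjusted p under 0.05, and voom on the recovered reads called 0 as well. By the authors' adjusted p, 9 members were higher and 27 lower at 8 weeks, against 20.2% and 77.2% of the table. The median log2 change of the members was -0.54, -0.62, -0.10 and -0.43 at 3, 8 and 11 weeks and with TNF, and that of all listed regions was -0.70, -0.86, -0.60 and -0.58.

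The authors' deposited tables gave the other comparisons in the same form. They had 31 higher and 56 lower members at 3 weeks (9.71% and 89.5% of the table), 27 and 27 at 11 weeks (29.8% and 67.0%) and 15 and 29 with TNF (24.6% and 72.3%). The share of higher regions among these members was 35.6% at 3 weeks, 25.0% at 8 weeks and 34.1% with TNF, and at 11 weeks it was even. At coding promoters it was 40.5%, 46.8%, 40.7% and, at 11 weeks, 49.7%. Differences between the noncoding and coding shares were not tested. At 8 weeks the single gene Rn4.5s supplied 8 of the 27 lower members, and without it the share was 32.1%.

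Beyond the tests, groups that did not overlap were counted. At 3 weeks 19 members lay wholly above WT and 53 wholly below (6.29% and 86.4% of all listed regions). The counts were 9 and 20 at 8 weeks (16.9% and 46.3%), 25 and 28 at 11 weeks (28.8% and 67.1%) and 11 and 19 with TNF (22.4% and 51.8%). The members' shares were not tested against the tables, which also hold coding promoters and regions outside promoters.

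At 3 weeks members within 250 bp of the start were mostly higher by the authors' adjusted p, and those farther away mostly lower. Differences between the tables in this were not tested. Within 250 bp, from there to 1 kb and from there to 3 kb, the members past the authors' adjusted p at 3 weeks were 14 higher and 1 lower, 10 and 14, and 7 and 41. At 8 weeks they were 2 and 5, 6 and 13, and 1 and 9. Within 250 bp, Mir199b was the only lower member outside the Rn4.5s repeats, and Snhg3 and 0610040B10Rik were higher. Coding promoters within 250 bp were 71 higher and 38 lower at 8 weeks. At 11 weeks the members of the 3 distance classes were 4 and 3, 11 and 8, and 12 and 16. With TNF these members were 5 and 4, 6 and 11, and 4 and 14. Over the 4 tables, 25 members within 250 bp were higher and 13 lower by the authors' adjusted p, 33 and 46 of those up to 1 kb, and 24 and 80 of those up to 3 kb. Coding promoters had 801 and 184, 1535 and 1198, and 832 and 2731 over the 4 tables, so the share that was higher decreased with distance there too. Members at 8 weeks whose centre lay before the start, some of them at Rn4.5s, were all lower (13 of 13), and those after it were 9 higher and 14 lower. Coding promoters centred before the start were also mostly lower at 8 weeks (61 higher and 244 lower), and those after it were 450 and 336. By limma, the 3 classes of members at 3 weeks had 4 rises and 1 fall, 5 and 12, and 5 and 39. Of the 15 members within 250 bp, 10 were not called. When regions within 1 kb of a start set the scale, those 15 had 0 rises and a median change of -0.01. The 3 classes at 11 weeks had 3 rises and 3 falls, 8 and 9, and 13 and 15 by limma. At 8 weeks there was no call.

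**Figure D1:**
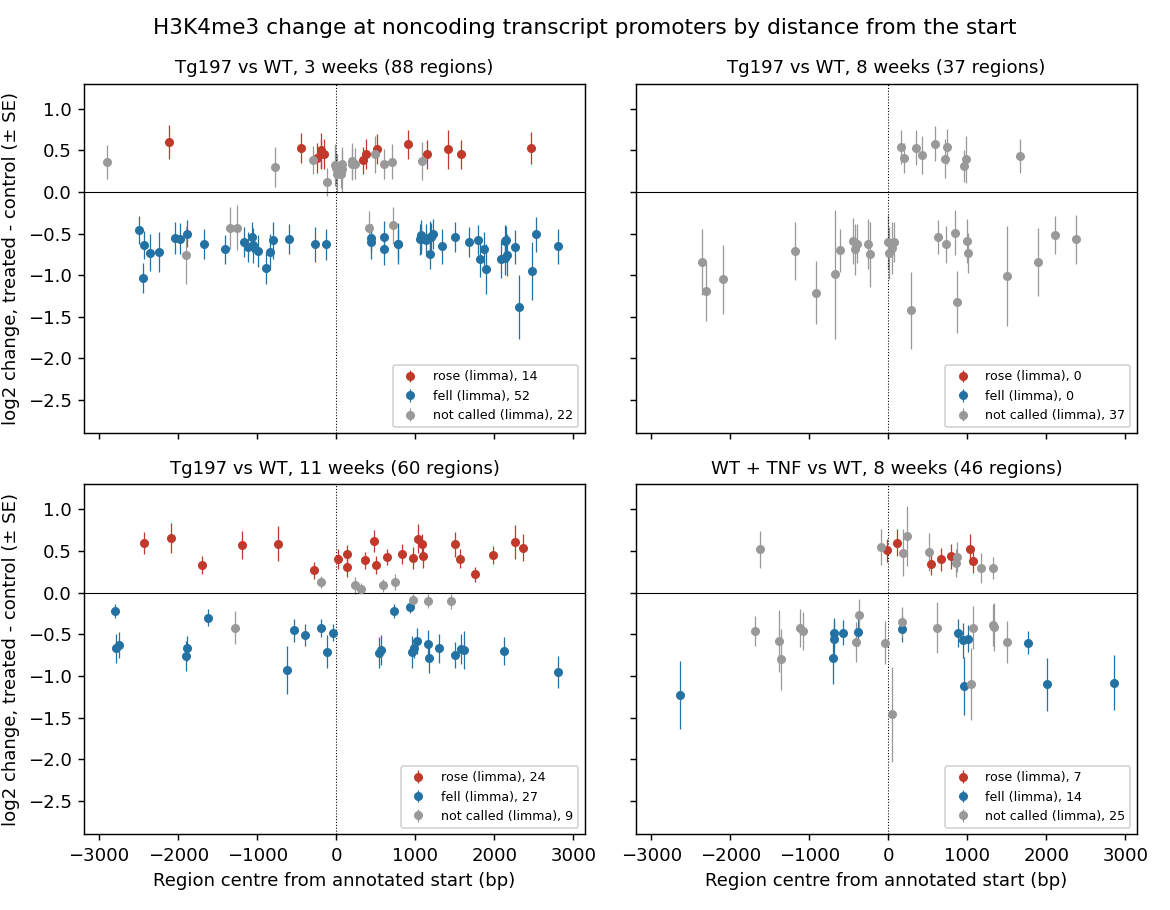
Log2 change of H3K4me3 (treated minus control, with its standard error) at each noncoding promoter region, against the distance of the region's centre from the annotated start in bp, for the 4 comparisons. Red points rose and blue points fell by limma, and grey points were not called. At 3 weeks the points close to the start lie mostly above 0 and the distant ones mostly below it.

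The number of members counted as falling depended on the scaling. When libraries were scaled to the median of everything listed, members rose and fell as 17 and 0 at 3 weeks, 3 and 1 at 8 weeks, 31 and 1 at 11 weeks and 15 and 1 with TNF. Among all 13603, 2923, 6593 and 3082 listed regions, the counts in the same order were 940 and 6, 338 and 76, 2078 and 681, and 772 and 258. Next, only listed regions within 1 kb of a start set the scale. Members then rose and fell as 0 and 57, 0 and 16, 16 and 31, and 2 and 23. All listed regions then did so as 3 and 12238, 12 and 1717, 1488 and 4519, and 221 and 1946. The first scaling moved the median of the members by over 0.1 in each table, to 0.13, 0.10, 0.25 and 0.08, and that of all listed regions to -0.04, -0.15, -0.26 and -0.07. All 14, 24 and 7 rises at 3 weeks, 11 weeks and with TNF kept a positive sign under both scalings, though none of the 14 at 3 weeks was called under the second. Of the 52, 27 and 14 falls, 17, 23 and 9 kept a negative sign under the first scaling and all kept it under the second. The authors' scaling is used below, and a fall whose sign turned under the first scaling is marked where it is described.

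At 3 weeks the largest fall lay at Miat, a long noncoding RNA of the nucleus first linked to myocardial infarction. Its region (chr5:112655201-112656200) had 55.6, 47.0 and 29.9 normalized reads in Tg197 libraries and 106, 113 and 117 in WT libraries. Every Tg197 library was below every WT library, and the log2 change was -1.38 ± 0.38 (limma adjusted p = 0.0143). The region lay downstream of the start, in the class up to 3 kb. Pvt1, the long noncoding neighbour of the Myc oncogene, moved the other way in a region of the same class (chr15:61871501-61872500). It had 181, 204 and 141 reads in Tg197 libraries and 122, 131 and 108 in WT libraries. The groups did not overlap and the region rose (0.53 ± 0.19, adjusted p = 0.0199). Terc, the RNA template of telomerase, had 93.8, 79.4 and 82.8 in Tg197 and 143, 114 and 126 in WT libraries. All WT libraries were above the Tg197 ones and the region fell (-0.57), but its change was 0.09 with scaling to all listed regions. Of the 24 RNAs of nuclear bodies, growth and stress that were listed for comparison, these 3 had a promoter region at 3 weeks.

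Of 22 listed transcripts that host small nucleolar RNAs in their introns, 3 had a promoter region at 3 weeks, and 2 of them rose. Snhg6 had 302, 348 and 258 reads in Tg197 and 239, 227 and 191 in WT libraries, and Snhg7 had 285, 307 and 228 against 218, 191 and 206. Both regions were centred within 250 bp of the start, no Tg197 library was as low as a WT library, and both rose (0.46 ± 0.18 and 0.41 ± 0.18, adjusted p = 0.0275 and 0.0417). When regions within 1 kb of a start set the scale, their changes were 0.13 and 0.07 and neither was called. Snhg3 had 127, 100.9 and 93.7 against 170.1, 149.8 and 155. Its groups were apart in the other direction and it fell (-0.57), with a change of 0.10 when scaled to all listed regions. The median of the 3 was 0.41, beside -0.70 for all listed regions, most of which lay outside promoters. At coding promoters the median was close to that of the 3, at 0.39 within 250 bp and 0.34 from there to 1 kb.

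Small RNA genes and coding loci with a noncoding variant supplied further falls at 3 weeks. Rnu7 encodes the U7 RNA that trims histone messenger RNAs, and its region had 129, 105 and 139.9 in Tg197 and 196, 164 and 182 in WT libraries. It fell (-0.54 ± 0.18), with a change of 0.12 when scaled to all listed regions. Cd40, a receptor of the TNF receptor family with a noncoding variant, had 76.3, 60.3 and 82.8 against 119.7, 119.6 and 121. The Cd40 groups were far apart and the region fell (-0.72 ± 0.22, adjusted p = 0.0145). All 7 regions of coding genes that limma called at 3 weeks fell. When scaled to all listed regions their changes ran from -0.12 at Hhatl to 0.13 at Vmn2r29, so the direction depended on the scaling. The remaining large falls lay at clones of unnamed function. The region of 9330175E14Rik had 70.7, 70.7 and 76.0 against 135, 154 and 156 and changed by -1.03 ± 0.18. Those of 5830417I10Rik, BC025920 and 5430405H02Rik changed by -0.95, -0.92 and -0.81. The pseudogenes Pdxk-ps (-0.91) and Gpr137b-ps (0.53 and 0.57 in 2 regions) resemble their coding parents, so reads may be split between the copies.

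Among the other rises, 4933439C10Rik had 405, 457 and 316 against 261, 285 and 264 (0.52 ± 0.18), and B930059L03Rik changed by 0.51 ± 0.23. In B930059L03Rik, Tg197 library c, at 269, stood well above libraries a and b, at 143 and 162. The 2 listed RNAs of the Hox clusters and limbs, D030028A08Rik and Mir196a-1, both fell (-0.65 and -0.63), and both changes were near 0 (0.02 and 0.04) when scaled to all listed regions. Snord116, a cluster of the imprinted Prader-Willi locus, had 109, 74.2 and 277 against 209, 221 and 235. Here Tg197 library c exceeded all WT libraries while a and b were far below, and the region was not called (-0.76 ± 0.35, adjusted p = 0.0547). The calls at 3 weeks depended on the WT libraries. Without WT library c limma called 0 of the 88 members and 0 of all regions. Without a or b it called 36 and 38 members, and 8117 and 7955 of all 13603 listed regions.

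At 11 weeks rises and falls were about equal in number among the members, and named RNAs appeared in both. Tug1, a widely expressed long noncoding RNA, had 336, 412 and 419 reads in Tg197 and 287, 281 and 318 in WT libraries (chr11:3547901-3549000). Every Tg197 library was above every WT library and the region rose (0.39 ± 0.10, adjusted p = 0.00477). The promoter shown above lies back to back with that of the coding gene Morc2a, so the mark of the 2 genes cannot be told apart. Airn, an imprinted RNA that silences Igf2r on the paternal chromosome, had 194, 206 and 265 against 163, 174 and 156. Its groups were apart and it rose (0.42 ± 0.13). It was the 1 of 18 listed RNAs of imprinting and X inactivation with a promoter region in any comparison.

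The RNA now named Norad, listed as 2900097C17Rik, binds Pumilio proteins and protects genome stability. Its region had 70.7, 94.3 and 63.6 in Tg197 and 121, 118 and 121 in WT libraries. All Tg197 libraries lay below the narrow WT range and the region fell (-0.67 ± 0.18, adjusted p = 0.00474). The region lay almost 3 kb before the start (chr2:156221001-156222000). 2810055G20Rik, now Mir99ahg, is the host of the miR-99a, let-7c and miR-125b-2 cluster, and it had 142, 145 and 169.9 against 238, 224 and 269. It fell clearly beyond the spread of its libraries (-0.67 ± 0.12). 1500011K16Rik, now known to encode the small mitochondrial protein mitoregulin (Mtln), fell by 0.58 on the log2 scale.

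Host transcripts of small nucleolar RNAs again went both ways at 11 weeks. Gas5, which accumulates in growth-arrested cells, had 267, 299 and 296 against 249, 249 and 239. Its WT libraries were tightly grouped below the Tg197 ones and it rose by a small amount (0.22 ± 0.09, adjusted p = 0.0363). Snhg7 had 208, 199.8 and 196 against 159, 139.5 and 156, and rose as at 3 weeks (0.41 ± 0.11). The 2 regions of Snhg7 lay at different distances from its start, so they are not the same measurement. Snhg12 had 243, 208 and 248 against 304, 325 and 344 over its start (chr4:131863901-131865200). Its groups were apart and it fell (-0.48 ± 0.10, adjusted p = 0.00434). When regions within 1 kb of a start set the scale, the changes of Gas5, Snhg7 and Snhg12 were 0.08, 0.26 and -0.63.

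**Figure D2:**
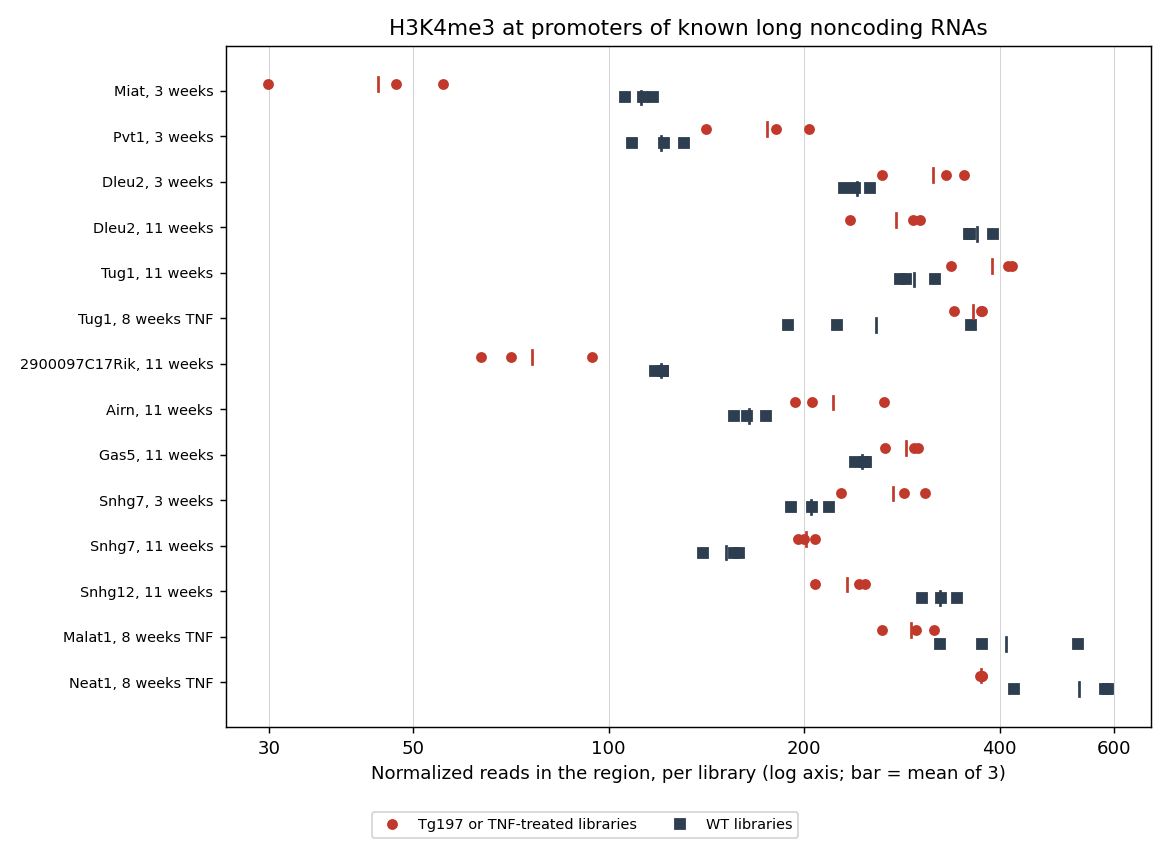
Normalized reads per library (log axis) in the region nearest the start of named long noncoding RNAs and host transcripts, with the comparison after each name. Red points are Tg197 or TNF-treated libraries, dark squares are WT libraries and bars are means of 3. Miat has the widest gap, from 29.9 to 55.6 against 106 to 117, and Dleu2 lies on opposite sides of WT at 3 and 11 weeks.

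The largest rises at 11 weeks by the limma change lay at 0610008F07Rik, now Hnf4aos (0.66 ± 0.18), 2610001J05Rik (0.65 ± 0.17), Btbd19 (0.62 ± 0.13), LOC100302626 (0.61 ± 0.20) and Snora74a, a small nucleolar RNA (0.60 ± 0.13). Btbd19 had 226, 195 and 194 in Tg197 and 125, 126 and 151 in WT libraries. Its lowest Tg197 library was well above its highest WT library. The largest falls lay at 1810064F22Rik (-0.95 ± 0.19), 1700022A21Rik (-0.93 ± 0.29), 4933406I18Rik (-0.78 ± 0.19), 4933432I09Rik (-0.76 ± 0.18), 9330175E14Rik (-0.75 ± 0.16) and Gm14057 (-0.72 ± 0.19). In 1700022A21Rik the Tg197 libraries had 42.8, 106 and 46.0 and WT had 126, 108 and 107. Library b reached almost to the WT range while a and c were far below it. 9330175E14Rik had fallen at 3 weeks too, in a region on the other side of its start.

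At 11 weeks, 16 rises and 1 fall were called in the same direction under all 3 scalings. The rises included Tug1, Snhg7, Snora74a, Mir17, Mir210 and Btbd19, and the fall was 1810064F22Rik. Of the 12 RefSeq noncoding promoters of genes with a higher region at 11 weeks, 8 lay within 1 kb of a coding start on the other strand (66.7%), against 1 of 10 promoters of genes with a lower region. Examples were Tug1 with Morc2a, Gas5 with Zbtb37, C630043F03Rik with Tle1 and 3110021A11Rik with Erc1. The order was not the same in every comparison. For genes with a higher and with a lower region, the shares were 37.5% and 25.9% at 3 weeks. They were 16.7% and 30.0% at 8 weeks and 25.0% and 36.4% with TNF. None of these differences was tested. Leaving out any 1 library at 11 weeks gave between 46 and 50 calls among the members, beside 51 with all libraries. Among all 6593 listed regions it gave between 6139 and 6276 calls, beside 6414. Dnm3os, the host of a miR-199a and miR-214 cluster that is typical of mesenchymal cells, was listed at 11 weeks but had overlapping groups (367, 423 and 411 against 402, 450.0 and 438) and was not called (-0.10 ± 0.09).

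At 8 weeks no member was called by limma, and the values are given with the authors' direction. Rnu1b2, a gene of the U1 splicing RNA, had 29.9, 56.6 and 52.3 in Tg197 and 146, 137 and 86.1 in WT libraries (-1.42 ± 0.46, limma adjusted p = 0.0725). All its WT libraries were above all Tg197 libraries. U1 has many copies, so its reads may be shared. 2310050B05Rik, now Atcayos, had 48.1, 48.5 and 84.8 against 156, 184 and 109, and Gm15698 had 163, 289.9 and 276 against 908, 520.0 and 342. In both, WT library c was the WT library closest to the Tg197 values. 2210409E12Rik and E130112N10Rik were lower as well (-1.19 ± 0.36 and -0.73 ± 0.24).

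On the higher side at 8 weeks, Snhg3 had 283, 274 and 277 in Tg197 and 197, 223 and 208 in WT libraries. The Tg197 libraries were nearly equal and all above WT (0.41 ± 0.18, limma adjusted p = 0.0784). That region covered the part just after the start, whereas the Snhg3 region that fell at 3 weeks lay before it. Thap6, which RefSeq types as a transcribed pseudogene, had 221, 303 and 284 against 167, 195 and 176, and 0610040B10Rik had 377, 310.1 and 288 against 197, 229 and 244. Groups were apart in both (0.58 ± 0.21 and 0.54 ± 0.20). The other large ones were 2410002O22Rik (0.54), A930015D03Rik (0.53), C630043F03Rik (0.44) and 2210403K04Rik, now Mir22hg, the host of miR-22 (0.43). Terc was lower at 8 weeks (119, 146 and 141 against 295, 184 and 153), in a region upstream of the one that fell at 3 weeks, and its change was 0.13 when scaled to all listed regions.

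WT library c set much of the spread at 8 weeks. Of the 27 lower members it was the WT library nearest the Tg197 mean in 26, and the median ratio of WT libraries a, b and c to that mean was 2.17, 1.64 and 1.18. The same held for the TNF comparison, where it was nearest in 25 of 29 and the ratios were 1.64, 1.68 and 1.19. Without WT library c limma called 31 of the 37 members at 8 weeks, 4 up and 27 down, and 2563 of the 2923 regions of the table. Why this library differs was not tested.

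With TNF 2 RNAs of nuclear bodies, Neat1 and Malat1, were lower. Neat1, the RNA scaffold of paraspeckles, had 373, 375 and 376 in TNF-treated and 582, 588 and 421 in untreated libraries (chr19:5845201-5846900). The treated libraries were nearly equal and below all untreated ones, and the region fell (-0.48 ± 0.15, adjusted p = 0.046), with a change of 0.02 when scaled to all listed regions. Malat1, the neighbouring RNA of nuclear speckles, had 317, 264 and 297 against 529, 375 and 324. Its groups were apart, but untreated library c was close to the treated ones and the change missed the threshold (-0.46 ± 0.18, adjusted p = 0.0529), turning to 0.05 under the same scaling. Tug1 had 340.1, 376 and 375 against 189, 224 and 361 in a region that overlapped the one of 11 weeks. Untreated library c lay within the treated range, so the groups overlapped and Tug1 was not called (0.55 ± 0.22, adjusted p = 0.0522).

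Other regions that fell with TNF included 2810008D09Rik, now Snhg20, with 132, 65.4 and 96.8 in treated and 225, 248 and 149 in untreated libraries (-1.10 ± 0.32). B230319C09Rik, whose promoter is back to back with the DNA demethylase gene Tet3, had 74.2, 54.9 and 96.8 against 194, 162 and 131 (-1.12 ± 0.35). Plscr3, a coding gene with a noncoding variant, had 110.3, 67.2 and 73.7 against 209, 199 and 127. Its groups were apart, and it was the only fall with TNF called under all 3 scalings (-1.08 ± 0.33). Scarna2, an RNA that guides modification in Cajal bodies, fell in a region before its start (-0.56), and its region after the start was not called (-0.42). Rnu7 was lower than untreated in every treated library (92.2, 50.1 and 66.6 against 178, 184 and 94.1) and was not called by limma (adjusted p = 0.0501).

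With the authors' scaling the rises with TNF were smaller. This depended on the scaling. Scaled to all listed regions, the rises 4933427E11Rik and Ppp4r1l changed by 1.1 and 1.01, and the fall Plscr3 by -0.58. 4933427E11Rik had 249.6, 258 and 225 in treated and 165, 143 and 176 in untreated libraries, and Ppp4r1l had 275, 297 and 286 against 178, 206 and 221. Both were apart over the start, and these were the 2 rises called under all 3 scalings (0.60 ± 0.16 and 0.51 ± 0.14). 5330426P16Rik, now Dubr, rose by 0.53 ± 0.18, 2410002O22Rik by 0.44 ± 0.15, C030034I22Rik by 0.40 ± 0.14 and 4632427E13Rik by 0.38 ± 0.14. Snhg8, whose promoter holds the kB motif shown above, had 282, 307 and 293 against 178, 279.5 and 240.1. Every treated library was above the untreated ones, though untreated library b came within a few reads, and Snhg8 was not called (0.36 ± 0.17, adjusted p = 0.0798). 2610203C20Rik, now Mir100hg, is the host of miR-100, let-7a-2 and miR-125b-1. It had 233, 225 and 249 against 117, 200.4 and 187 and was not called either (0.52 ± 0.22, adjusted p = 0.0556). It was the 1 of 12 microRNA hosts found under its listed symbol in this comparison. Another of the 12, Mir22hg, annotated here as 2210403K04Rik, fell with overlapping groups (-0.48 ± 0.18, adjusted p = 0.0496). Its sign turned when scaled to all listed regions. The calls with TNF depended on several libraries. Without treated library b or c, or untreated library a or b, limma called 0 members and 0 of all listed regions. Without untreated library c it called 39 members and 2770 of all 3082 listed regions.

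Of 21 regions assigned to 20 microRNA genes, 4 rose and 12 fell by limma, and 6 were higher and 15 lower by the authors' adjusted p. Between 67.0% and 89.5% of all regions of a table were lower by that measure, so nothing particular to microRNAs is read from their count. Scaled to all listed regions, 4 rose and 0 fell, so the direction of the falls depended on the scaling. At 3 weeks 1 of 10 rose and 7 fell. Mir34a, a target of p53, had 77.1, 73.6 and 91.0 in Tg197 and 112, 109.5 and 147 in WT libraries. All WT libraries were higher and it fell (-0.60 ± 0.21), with a change of 0.07 when scaled to all listed regions. Mir125b-2, of the Mir99ahg cluster, had 79.5, 88.1 and 80.1 against 124, 136 and 131, and Mir138-2 had 137, 133 and 160.2 against 217, 219 and 258. Both fell beyond the spread of the libraries (-0.66 ± 0.18 and -0.69 ± 0.17), and with the same scaling Mir125b-2 changed by 0.01 and Mir138-2 by -0.02.

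The other microRNA regions at 3 weeks were Mir688 (-0.73 ± 0.22), Mir196a-1 of the Hoxb cluster (-0.63 ± 0.19), Mir425 (-0.55 ± 0.17) and Mir497 (-0.54 ± 0.18), which fell, and Mir684-1 (0.60 ± 0.20), which rose. When scaled to all listed regions the changes of Mir196a-1, Mir425 and Mir497 were 0.04, 0.12 and 0.13. Mir193 had 485, 573 and 282 against 328, 343 and 375 and Mir99b had 346, 375 and 229 against 248, 248 and 228. In both, Tg197 libraries a and b were above WT and c was not, and neither was called (adjusted p = 0.232 and 0.0992). Mir99b, clustered with let-7e and miR-125a, was the only member of the inflammation list found under its listed symbol at 3 weeks. Mir22hg of the same list, annotated here as 2210403K04Rik, fell at that age (-0.46 ± 0.17, adjusted p = 0.0224). Its change was 0.21 when scaled to all listed regions.

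At 11 weeks 3 of 5 microRNA regions rose. Mir210, a microRNA induced in hypoxia, had 162, 171 and 148 in Tg197 and 106, 118 and 98.9 in WT libraries (chr7:148405801-148406800). The groups were well apart and it rose (0.58 ± 0.13, adjusted p = 0.00438). Mir17, the first microRNA of the growth-promoting miR-17-92 cluster, had 119.9, 140.4 and 180.0 against 89.4, 93.3 and 111. It rose (0.57 ± 0.17), and like Mir210 it was called in all 3 scalings. Mir190b had 141, 116 and 82.9 against 74.0, 64.5 and 82.0, with its lowest Tg197 library just above its highest WT library (0.59 ± 0.21). Mir449c, typical of ciliated cells and sharing its seed with miR-34a, had 93.2, 116 and 82.9 against 156, 153 and 153, and Mir9-3, typical of neural cells, had 105, 100.4 and 99.6 against 145, 141 and 151. Both fell (-0.67 ± 0.15 and -0.51 ± 0.13). Of the 38 RNAs listed as responsive to inflammation, only Gas5, Mir17 and Mir210 had a promoter region at 11 weeks. All 3 rose, where 29.6% of all listed regions rose. When regions within 1 kb of a start set the scale, Gas5 changed by 0.08 and was not called. With TNF the inflammation list had 3 members under their listed symbols, of which Neat1 and Mir212 fell and Malat1 was not called. Mir22hg of that list, annotated as 2210403K04Rik, fell as well.

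At 8 weeks the 2 microRNA regions were both lower. Mir23a, of the inflammation list, had 75.9, 85.0 and 104 in Tg197 and 158, 151 and 122 in WT libraries, and Mir199b, a microRNA of mesenchymal cells, had 144, 196 and 197 against 330.4, 281 and 211. Groups were apart in both, and limma called neither (-0.70 ± 0.26 and -0.60 ± 0.24, adjusted p = 0.0725 for each). Scaled to all listed regions the changes were 0.01 and 0.11.

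All 4 microRNA regions of the TNF comparison were lower than in untreated cells. Mir143, which with miR-145 marks smooth muscle and other mesenchymal cells, had 109, 56.3 and 67.7 in treated and 268, 178 and 113 in untreated libraries. Treated library a and untreated library c nearly met, yet the groups were apart and the region fell (-1.23 ± 0.41, adjusted p = 0.046). Mir212, processed from the same transcript as miR-132, had 163, 146 and 165 against 251, 202 and 206. It fell (-0.47 ± 0.17), with a change of 0.04 when scaled to all listed regions. Mir688 fell (-0.79 ± 0.31) as it had at 3 weeks, in another region of its locus. Mir700 had the largest change of the set (76.0, 35.6 and 40.2 against 173, 158 and 84.4, -1.46 ± 0.57), with an adjusted p of 0.0502, so it was not called. Mir34a, Mir199b and Mir143 were the only members of the list of 28 fibroblast microRNAs, each in 1 comparison.

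**Figure D3:**
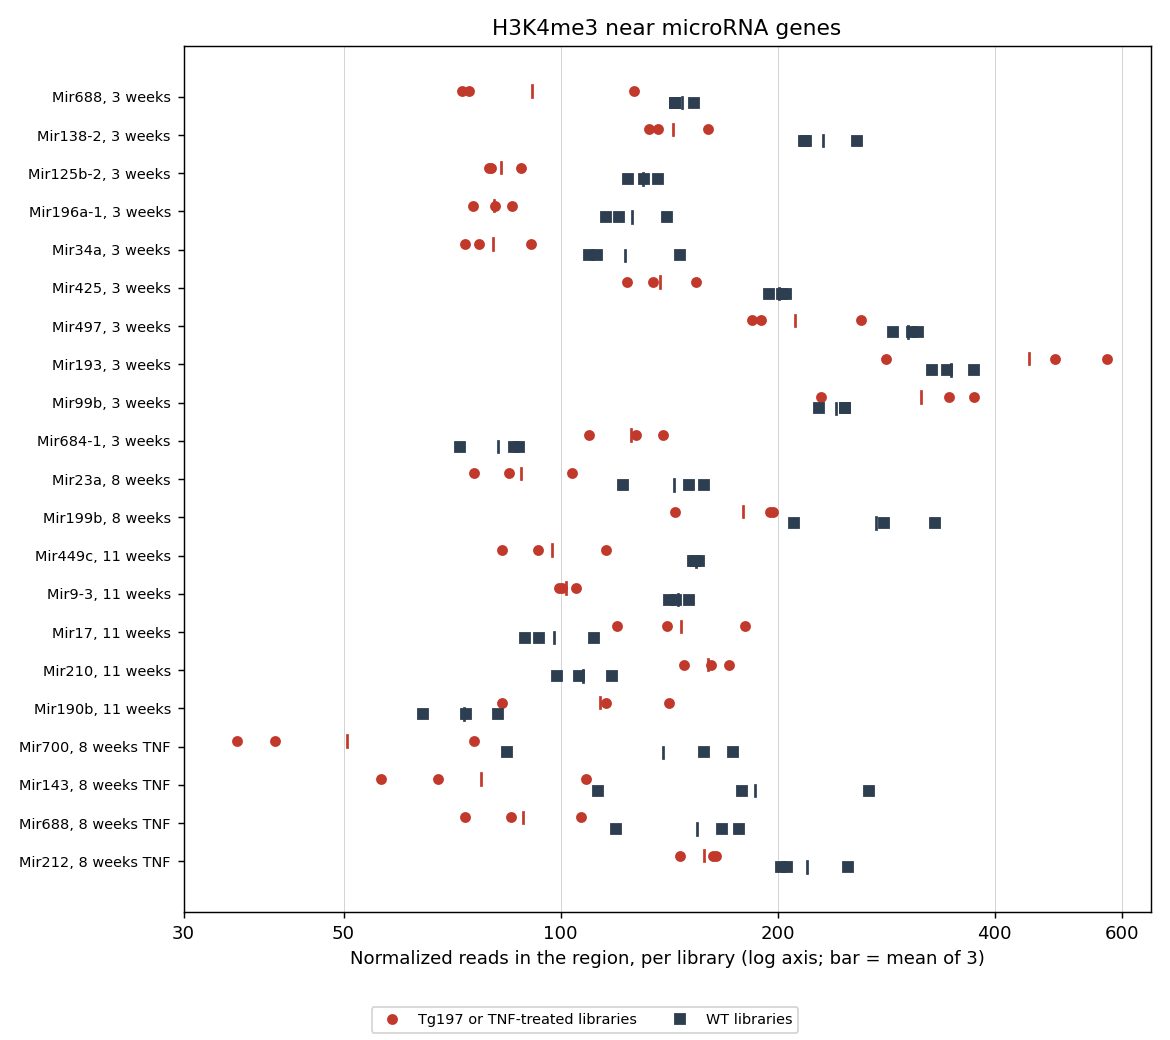
Normalized reads per library (log axis) in the region assigned to each microRNA gene, ordered by comparison and then by log2 change. Red points are Tg197 or TNF-treated libraries, dark squares are WT libraries and bars are means of 3. In 15 of 21 regions the WT libraries lie to the right of the treated ones, and at 11 weeks Mir17, Mir210 and Mir190b lie the other way.

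Most member genes were listed once. Of the 169, 138 appeared in 1 table, 26 in 2, 3 in 3 and 2 in all 4. Regions of 2 tables overlapped by at least 50% of the shorter in 20 pairs, of which 5 pairs compared the 2 tables of 8 weeks and so share control libraries. Of the 15 other pairs, 12 had the same sign and 3 opposite signs. Wbscr25 fell at both 3 and 11 weeks (-0.68 ± 0.20 and -0.70 ± 0.17), and C630043F03Rik was higher at 8 weeks and rose at 11 weeks (0.44 and 0.40).

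Dleu2, the host of miR-15a and miR-16-1 at a locus deleted in leukaemia, had opposite signs at 3 and 11 weeks. At 3 weeks it had 352, 331 and 263 in Tg197 and 239, 253 and 230.4 in WT libraries. Every Tg197 library was above WT, and the change narrowly missed limma's threshold (0.38 ± 0.17, adjusted p = 0.0522). At 11 weeks it had 236, 301 and 295 against 359, 391 and 359.5. Every Tg197 library was then below WT and the region fell (-0.42 ± 0.11, adjusted p = 0.00451). With scaling to all listed regions the 2 changes were 1.05 and -0.08, and when regions within 1 kb of a start set the scale 0.05 and -0.57. The 2 tables were normalized separately, so levels are compared only within an age.

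BC029722 rose in Tg197 cells at 11 weeks, with 186, 185 and 207 against 135, 153 and 130.3 (0.47 ± 0.12). In the overlapping region of the TNF comparison it fell, with 170.0, 151 and 156 in treated and 261, 211 and 198 in untreated libraries (-0.48 ± 0.17, or 0.03 when scaled to all listed regions). No library overlapped the other group in either table. The difference between the 2 changes was not tested. 5430417L22Rik, now the coding gene Inafm2, was listed in all 4 tables and in 2 with the same controls. A region before its start fell at 11 weeks (-0.63 ± 0.16, limma adjusted p = 0.00455). Its region at 3 weeks had overlapping groups and was not called (0.36 ± 0.21). The regions of the 2 tables with the same controls shared 600 bp. The gene had 292, 289.9 and 288 in Tg197 against 231, 206 and 270.4 in WT libraries at 8 weeks (0.31 ± 0.19, not past the authors' adjusted p). In the TNF table it had 119, 113 and 124 in treated against 172, 239 and 139.5 in untreated libraries (-0.59 ± 0.25). Groups were apart in both of these tables, and limma called neither region.

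Some genes had 2 or more regions in 1 table, which allowed a ratio within each library that does not depend on how libraries were scaled. Each region had been listed for a difference between these same libraries, so a separation of the ratios is not independent evidence. For 1110038B12Rik at 8 weeks, a region 0.7 kb after the start was compared with the flanks. Over the downstream flank the ratio was 3.33, 3.31 and 3.01 in Tg197 and 1.31, 1.45 and 2.54 in WT libraries. Over the upstream flank it was 10.1, 5.02 and 6.01 against 1.61, 1.92 and 4.80. All Tg197 ratios were above all WT ratios, and WT library c was the closest to Tg197. The exact two-sided permutation p was 0.1 for each, the smallest that 3 libraries against 3 can give. The core region itself had 415, 392.4 and 424 in Tg197 against 238, 322 and 392.4 in WT libraries, so it was higher while both flanks were lower, the downstream one with a change of 0.19 when scaled to all listed regions. With TNF, a downstream region of the gene fell (-0.60 ± 0.14), and at 3 weeks a region before the start fell (-0.50, or 0.16 when scaled to all listed regions).

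Gm14005, now Morrbid, a long noncoding RNA known from short-lived myeloid cells where it restrains the neighbouring Bcl2l11 gene, showed such a shift with TNF. The region before its start had 114, 107 and 119 in treated and 187, 195 and 135 in untreated libraries and was not called (-0.59 ± 0.24, adjusted p = 0.0525). The region after its start had 300.3, 362 and 343 against 276, 257 and 257 and rose (0.34 ± 0.13, adjusted p = 0.0481). The first over the second was 0.38, 0.29 and 0.35 in treated and 0.68, 0.76 and 0.52 in untreated libraries. The ratios did not overlap (exact two-sided permutation p = 0.1, the smallest possible). Both regions had again been listed for a difference between these libraries. In the other 7 pairs compared the ratios overlapped. The repeated Rn4.5s regions were not paired.

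**Figure D4:**
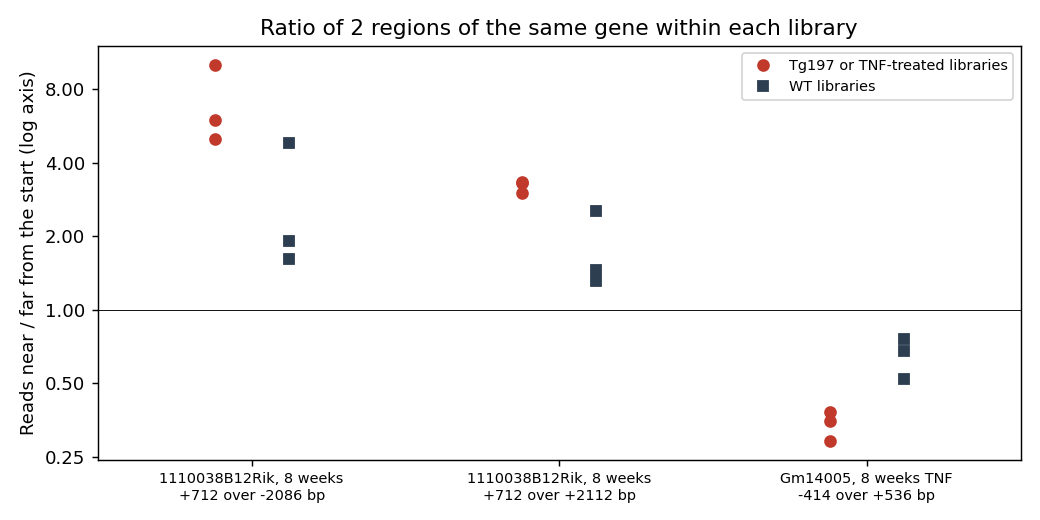
Ratio of normalized reads in the region nearer the start to the region farther from it, within each library, on a log axis, for the 3 pairs of regions whose groups did not overlap. Red points are Tg197 or TNF-treated libraries and dark squares are WT libraries. For 1110038B12Rik the treated ratios are higher, and for Gm14005 they are lower.

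Rn4.5s, a family of short repeated RNAs found in rodents, was in all 4 tables. Its 18 regions lay on chromosome 6, in a run of near-identical copies, so reads may be assigned to any copy and the values are uncertain for a single one. At 8 weeks its 8 regions had 316, 411 and 415 normalized reads per kb in Tg197 libraries and 854, 614 and 439 in WT libraries. The Tg197 libraries were all lower, with WT library c close to them. At 11 weeks its 8 regions had 637, 665 and 638 against 648, 675 and 705, with overlapping groups, and changes from -0.30 to 0.13. At 3 weeks the 1 region had 603, 412.5 and 644 against 718, 685 and 754 per kb, and with TNF 543, 421 and 522 against 1091, 750.3 and 513. Limma called 3 of the 18 regions, all falls at 11 weeks, and scaled to all listed regions it called 5 rises there and no fall.

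**Figure D5:**
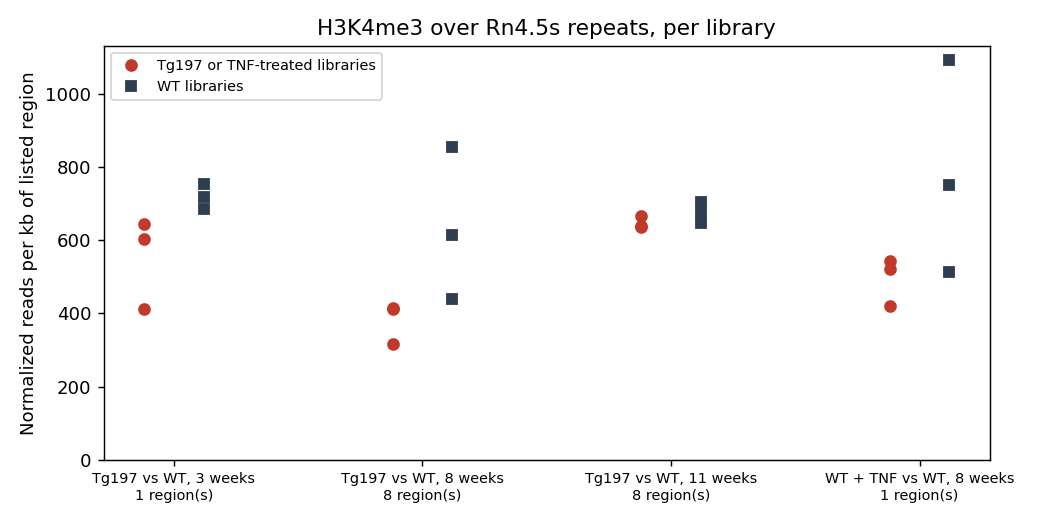
Normalized reads per kb over the listed regions of Rn4.5s in each library, by comparison. Red points are Tg197 or TNF-treated libraries and dark squares are WT libraries. WT libraries spread widely at 8 weeks, from 439 to 854, and lie close to the Tg197 libraries at 11 weeks.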

How the data were processed

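H3K4me3 ChIP-seq of mouse synovial fibroblasts (21 ChIP libraries, 1 input) was analysed from 4 deposited tables, 1 per comparison. BWA, TopHat, TopHat2, Cufflinks and Cuffdiff and the build mm9 are named, without roles, in the submitters' processing notes. No program is named for calling regions (not given in the sources used here). A cell holds the 3 normalized counts of a group, per the file headers, and the deposited group averages are a signal equal to their mean. The authors' enrichment columns are a ratio over input. The authors gave fold columns as log2 values, and the deposited p-value columns hold the authors' test and its adjusted value. Headers do not name the groups. The control column was taken as WT, since at 54 regions with identical coordinates the controls in the 2 tables of 8 weeks were equal in 162 of 162 read counts.

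Cells carry no replicate number. All values (100.0%) were whole multiples of 1 step per library within 0.02, which gave reads per library. Limma 3.58.1 (R 4.3.3) with a variance trend was fitted to log2 of the normalized count plus 0.5 over every region of a table, with Benjamini-Hochberg adjustment, so log2 changes are on that scale. The procedure was tested on simulated data. Listed regions had been selected on these libraries, so these p-values are not independent evidence. Tables, ratios and exact permutation tests used Python 3.11.15, pandas 2.3.3 and SciPy 1.17.1. Other scalings, another pseudocount, a filter at 20, voom and leaving out each library were tried as alternatives.

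Members and gene lists were chosen with earlier results of these data known. Named genes are those in the gene lists, the 6 largest rises and 6 largest falls per table among called members with non-overlapping groups, genes in at least 3 tables and all microRNA genes, each by its region nearest the start. Other genes named (such as Cd40, Rnu7, Dleu2 and BC029722) and current symbols were picked after their values were seen. Sequences are RefSeq's on GRCm38.p6, and no file coordinate was converted. The leukocyte markers at 3 weeks are not reported here.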

Additional observations from a re-analysis of the deposited data

Results flagged for a closer look

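The region over the Dleu2 promoter had all 3 Tg197 libraries above WT at 3 weeks (log2 change 0.38) and all 3 below WT at 11 weeks (log2 change -0.42). Under the same contrast every library of one age thus moved one way and every library of the other age the opposite way. The difference between the ages was not tested, since the 2 tables were normalized separately and share no library.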

How the results depend on the processing

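Members called by limma numbered 66, 0, 51 and 21 at 3, 8 and 11 weeks and with TNF. Scaled to all listed regions they were 17, 4, 32 and 16, and scaled to listed regions within 1 kb of a start 57, 16, 47 and 25. Of all listed regions, 12733, 0, 6414 and 1823 were called with the authors' scaling. The 2 other scalings called 946, 414, 2759 and 1030, and 12241, 1729, 6007 and 2167. Limited to members within 1 kb, calls with the authors' scaling were 22, 0, 23 and 14. Leaving out 1 library gave 0 to 84, 0 to 31, 46 to 50 and 0 to 39 called members. For all listed regions it gave 0 to 13397, 0 to 2563, 6139 to 6276 and 0 to 2770. The members' extremes came from WT library c (0) and Tg197 library c (84) at 3 weeks. At 8 weeks (31) and in the TNF table (39) they came from WT library c. Pseudocounts of 2 and 5, the filter and voom, the last chosen after seeing the data, kept counts within 1.5 times. Members past the authors' adjusted p numbered 87, 36, 54 and 44. Under the authors' adjusted p of 0.001 they were 75, 19, 31 and 19. Limited to members within 1 kb, those past the authors' adjusted p of 0.05 numbered 39, 26, 26 and 26. Without limma's correction, 67, 17, 51 and 31 members had p under 0.05. Scaled to all listed regions, 14 named falls turned positive. At 3 weeks these were 1110038B12Rik (0.16), 2210403K04Rik (0.21), 2810410L24Rik (0.03), D030028A08Rik (0.02), Mir125b-2 (0.01), Mir196a-1 (0.04), Mir34a (0.07), Mir425 (0.12), Mir497 (0.13), Snhg3 (0.10) and Terc (0.09). With TNF they were 2210403K04Rik (0.03), Mir212 (0.04) and Neat1 (0.02). The cause was not tested. The planned edgeR fit was not run, because the values are normalized and sit 3 to a cell. No paired analysis was possible because the cells carry 3 values with no replicate number. Depth is known only as reads in listed regions, whose number differs between tables, so depth was not compared across tables.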

Other observations

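Other members moved at loci that the comparisons above do not describe. At 11 weeks Wbscr25, Dand5 and Rab11fip4os1 (listed as Gm11202) fell (-0.70 ± 0.17, -0.61 ± 0.16 and -0.71 ± 0.19), and Sec14l1, Mrpl48 and AA465934 rose (0.27 ± 0.10, 0.33 ± 0.11 and 0.44 ± 0.14). Sec14l1, which encodes a lipid-binding protein and has a noncoding variant, had fallen at 3 weeks in another region, about 2 kb before its start (-0.55 ± 0.19, or 0.11 when scaled to all listed regions). 1700052K11Rik fell at 3 weeks (-0.58 ± 0.18, or 0.09 under that scaling) in a region farther from its start than the one that rose at 11 weeks (0.43 ± 0.10).

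Speer7-ps1, a pseudogene of a multicopy family in which reads can be shared between copies, had the most normalized reads of any member at 8 weeks. Its region (chr5:15183201-15188500) was long beside the members' median of 1200 bp, and reads were not divided by length. It had 1383, 1721 and 955 in Tg197 and 4098, 5555 and 789.7 in WT libraries, where WT library c was below every other library. Ipw, a transcript of the imprinted Prader-Willi locus, had 123, 222 and 164 against 474, 353 and 154 at 8 weeks, with WT library c within the Tg197 range. Neither was called by limma (-0.99 ± 0.77 and -0.84 ± 0.41). Counted by current RefSeq symbol, a grouping chosen after the values were seen, 15 regions lay at 11 host transcripts of small nucleolar RNAs or microRNAs, and 4 of them rose and 6 fell.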
